A study of Mus musculus with 9 samples.

Results

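The comparison described here is that of lungs from mice given interleukin-33 (IL-33) together with the MyD88 inhibitor LM8 and lungs from mice given phosphate-buffered saline (PBS), with 3 libraries in each group. All genes with a mean FPKM (fragments scaled for gene length and library size) of at least 0.5 over the 9 libraries of the series were members. This was the case for 16831 of the 34638 genes in the table, of which 16829 had a count in the 6 libraries compared and were tested. The question was which genes stayed raised or lowered against PBS when the inhibitor was given. A further question was which met the limits for a change with the inhibitor but not with IL-33 alone.

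All mice were wild-type C57BL/6, and RNA was taken from lung tissue. The IL-33 group received 0.5 µg of IL-33 per mouse through the trachea on days 0, 1, 2 and 3. The IL-33+LM8 group received the same challenge, with LM8 injected intraperitoneally at 10 mg/kg beforehand, and the PBS group was challenged with PBS. PBS and IL-33 mice were female, 6 to 8 weeks old, and were killed on day 4. Age, sex and time of collection of the LM8-treated mice are not given in the sources used here, and neither is the fluid in which LM8 was injected. No group received LM8 alone or a sham injection, so an effect of LM8 on the IL-33 response and an effect of LM8 or of its injection on the lung cannot be told apart.

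IL-33 is an alarmin released by damaged or stressed barrier cells. It binds the receptor ST2, encoded by *Il1rl1*, which signals with its co-receptor through the adaptor MyD88 and the IRAK kinases to NF-kB. In the lung it activates group 2 innate lymphoid cells, mast cells and macrophages. IL-5 and IL-13 from the lymphoid cells bring in eosinophils, turn macrophages to alternative activation and drive airway epithelium towards mucus secretion.

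Total counts were 61767006 to 73869252 per library in the PBS group, 53877663 to 66029783 in the IL-33 group and 59753648 to 90607218 in the IL-33+LM8 group. On the first principal component, which held 48.5% of the variance, the IL-33+LM8 libraries lay at 2.09 to 18.26, between the PBS libraries at -69.78 to -68.75 and the IL-33 libraries at 55.16 to 62.31. The second component, with 25.7% of the variance, set 1 library of each group apart from the rest. These were PBS replicate 3, IL-33 replicate 1 and IL-33+LM8 replicate 3, at -57.53 to -51.53 against 24.63 to 30.11 for the other 6 libraries. Their summed FPKM over 6 liver genes was 0.251 to 0.966, against 235 to 419 in the other libraries, and each was the most deeply sequenced of its group.

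**Figure D1:**
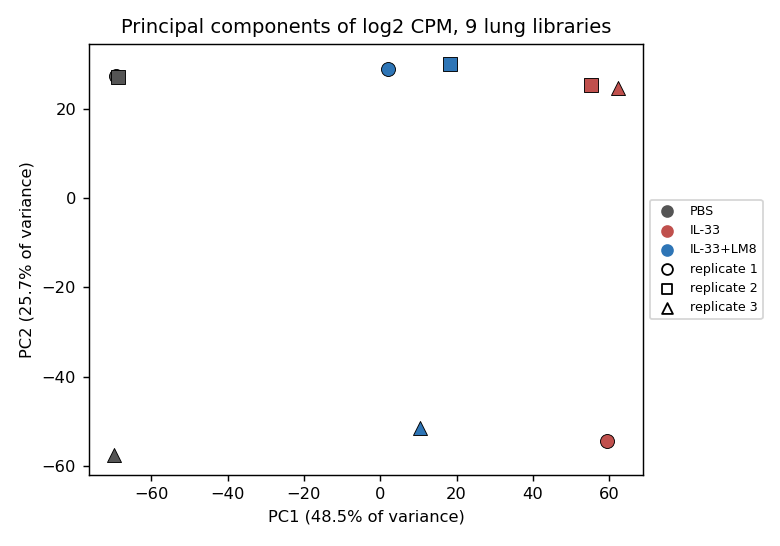
Each point is 1 lung library, placed by its first (x axis) and second (y axis) principal component of log2 CPM (counts scaled to library size), with the share of variance on each axis, colour for the group and shape for the replicate. The IL-33+LM8 libraries lie between both other groups on the x axis, and 1 library of each group lies low on the y axis.

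These 3 libraries also lay close to the midpoint of the other libraries of their group. Among genes whose other libraries differed by at least 1.5-fold, and whose shift in the libraries that stand apart was small in the other groups, IL-33+LM8 replicate 3 lay between replicates 1 and 2 for 441 of 469 genes (94.0%), at a median of 0.49 of the distance from replicate 1 to replicate 2. For IL-33+LM8 replicates 1 and 2, placed in the same way, the share was 41.4% and 47.8%. PBS replicate 3 lay between its neighbours for 81.5% of 276 genes and IL-33 replicate 1 for 84.4% of 167 genes. Their medians were 0.55 and 0.54. The other libraries of these groups lay between their neighbours for 59.1 to 68.2%. Medians of these other libraries were 0.55 and 0.53 for PBS and 0.31 and 0.19 for IL-33, so the median did not set PBS replicate 3 apart. Whether these libraries come from separate mice was not tested, and the p-values below treat all 3 libraries of a group as independent. Results are therefore also given without these 3 libraries, 2 against 2, where a call changes.

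A gene is called here when edgeR's quasi-likelihood test gave a Benjamini-Hochberg adjusted p under 0.05 over all genes tested and the fold change was at least 2 (1 on the log2 scale). IL-33+LM8 lungs differed from PBS lungs in 1233 genes, 7.33% of those tested, with 988 higher (5.87%) and 245 lower (1.46%). IL-33 alone had 1815 genes higher (10.8%) and 1050 lower (6.24%) than the same PBS libraries. Of the 988 genes higher under the inhibitor, 900 were also called higher with IL-33 alone. Among these, 611 were not called between both IL-33 groups, 270 were lower with LM8 than without it, and 19 were higher still. A further 85 were not called with IL-33 alone, and 26 of them were also called higher than in IL-33 lungs. These 26 are named newly higher below. Of the 85, 40 had an adjusted p under 0.05 in the same direction with IL-33 alone but missed the 2-fold limit. 3 genes were called in opposite directions, *Fpr1*, *Fpr2* and *Cd300e*. On the lower side, 175 of 245 genes were also lower with IL-33 alone, and 70 were not called with it. Of these 70, 17 were also lower than in IL-33 lungs and are named newly lower. By a separate count, 17 of the 70 had an adjusted p under 0.05 in the lower direction with IL-33 alone. Newly changed therefore means not called with IL-33 alone, which does not show that IL-33 left the gene unchanged.

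Direct comparison of the IL-33 groups called 245 genes higher with LM8 (1.46%) and 662 lower (3.93%). Both comparisons against PBS share the PBS libraries, and the IL-33+LM8 libraries stand in both comparisons that define the newly changed genes. Of the genes raised by IL-33 alone, 1813 were also tested under the inhibitor. Of these, 913 were not called higher under the inhibitor, of which 306 were called lower than in IL-33 lungs. Of the 1050 genes lowered by IL-33 alone, 875 were not called lower under the inhibitor. Leaving aside the 3 genes called in opposite directions, 149 of the 875 were called higher than in IL-33 lungs. Without the 3 libraries that stand apart, 840 of the 988 (85.0%) and 176 of the 245 genes (71.8%) were called again. All 988 and all 245 kept their direction, but that fit reuses the remaining libraries, so this was nearly fixed in advance.

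Among the genes raised over both other groups, *S100a9* and *S100a8* had the highest levels under the inhibitor. They encode the subunits of calprotectin, the main protein of neutrophil cytosol. *S100a9* measured 16.7, 16.8 and 11.4 FPKM in PBS lungs, 39.9, 57.0 and 46.7 FPKM in IL-33 lungs, and 563, 482 and 481 FPKM in IL-33+LM8 lungs. *S100a8* measured 3.12, 3.77 and 3.43 FPKM with PBS, 10.8, 13.8 and 10.7 FPKM with IL-33, and 142, 130 and 131 FPKM with IL-33+LM8. Neither gene's groups overlapped; over all genes tested, PBS and IL-33+LM8 values did not overlap for 47.3%. The log2 fold change against PBS was 5.10 (SE 0.18, adjusted p = 1.1e-05) for *S100a9* and 5.29 (SE 0.09, adjusted p = 1.2e-06) for *S100a8*. Against IL-33 lungs it was 3.41 (SE 0.14, adjusted p = 3.3e-05) and 3.51 (SE 0.12, adjusted p = 3.1e-05). In bulk tissue, more cells of a type and more RNA per cell cannot be told apart.

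The bases upstream of the *S100a8* and *S100a9* start sites are shown because of the levels of these genes. They are the 250 bases before the start site in RefSeq on GRCm38.p6, 5′ to 3′ on the gene's strand, at chr3:90668821-90669070 (plus strand) for *S100a8* and chr3:90695722-90695971 (minus strand) for *S100a9*. Capitals mark a match to TTGCNNAA, a core of sites bound by the myeloid C/EBP factors, searched on both strands.
S100a8: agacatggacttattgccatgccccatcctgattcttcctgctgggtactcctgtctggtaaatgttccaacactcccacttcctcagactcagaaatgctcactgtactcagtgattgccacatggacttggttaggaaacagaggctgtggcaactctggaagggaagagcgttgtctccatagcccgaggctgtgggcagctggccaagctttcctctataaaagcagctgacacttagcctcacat
S100a9: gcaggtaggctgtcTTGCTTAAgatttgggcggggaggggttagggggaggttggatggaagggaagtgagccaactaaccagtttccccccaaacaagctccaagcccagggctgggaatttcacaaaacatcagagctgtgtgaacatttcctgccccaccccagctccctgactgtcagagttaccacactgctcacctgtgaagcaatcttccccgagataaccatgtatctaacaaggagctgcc
The *S100a9* window held 1 match, which begins 236 bases before the start site, and the *S100a8* window held 0. Among the 45 newly higher or higher-still genes, 35 had an entry, and 6 of these (17.1%) held such a match, against 9.55% of the windows of 11534 genes tested and 1 of the 7 newly lower genes with an entry (14.3%). The STAT6 core, TTC and GAA with 4 bases between them, bound by the factor downstream of IL-4 and IL-13, was in 0 of these 35 windows and in 5.69% of all windows. A match is a description of the sequence only.

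All 18 genes of the neutrophil list were higher than with PBS, at a median log2 fold change of 4.58 against 0.00 over all genes tested, and 11 of them were also higher than in IL-33 lungs while 1, *Ltf*, was lower. With IL-33 alone, 15 of the 18 were higher than with PBS, at a median of 2.04. *Ly6g*, which encodes the surface antigen used to identify mouse neutrophils, was at 0.128, 0.102 and 0 FPKM with PBS, 0.729, 0.435 and 0.703 FPKM with IL-33, and 11.8, 8.64 and 10.5 FPKM with IL-33+LM8. Its log2 fold change against PBS was 6.92 (SE 0.69, adjusted p = 0.00054). Genes of granule proteins differed among themselves. *Mmp8*, neutrophil collagenase, rose by 5.16 on the log2 scale (SE 0.32, adjusted p = 8.6e-05) to 43.3, 32.3 and 38.1 FPKM, and *Ngp*, a granule protein of immature neutrophils, by 4.43 (SE 0.12, adjusted p = 9.3e-06) to 41.9, 49.8 and 46.9 FPKM. *Ltf*, lactoferrin of the granules, was at 15.5, 30.9 and 23.7 FPKM under the inhibitor, above PBS at 4.32 to 6.5 FPKM. It was below IL-33 at 41.6 to 58.9 FPKM (log2 fold change -1.11, adjusted p = 0.014 from edgeR). That call of *Ltf* against IL-33 was lost without the libraries that stand apart (adjusted p = 0.083 from edgeR). *Cxcr2*, the receptor that draws neutrophils along chemokine gradients, had 23.0, 19.3 and 20.6 FPKM under the inhibitor against 0.794 to 1.38 FPKM with PBS. The summed FPKM of the list was 47.2 to 53.5 with PBS, 296 to 327 with IL-33 and 1020 to 1170 with IL-33+LM8. *Stfa2l1*, a stefin A-like protease inhibitor, had 0 counts with PBS and 4.99, 5.88 and 3.8 FPKM with IL-33+LM8, at least 46.8-fold higher. All 18 calls against PBS were also made without the 3 libraries that stand apart, and 17 with the replicate number as a block, where *Hdc* (histidine decarboxylase) fell short of the fold limit.

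Summed FPKM over 9 red cell and platelet genes also moved with these groups. It was 7860 to 9310 with PBS, 2550 to 3200 with IL-33 and 10900 to 12400 with IL-33+LM8. None of the 9 genes was called against PBS under the inhibitor, at a median log2 fold change of 0.45, while 7 were called higher than with IL-33. *Hbb-bs*, a beta-globin, had 5730, 5310 and 5040 FPKM with IL-33+LM8, 4180, 4010 and 3670 FPKM with PBS and 1150, 1110 and 1400 FPKM with IL-33. The part of blood content in the neutrophil values was not tested.

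**Figure D2:**
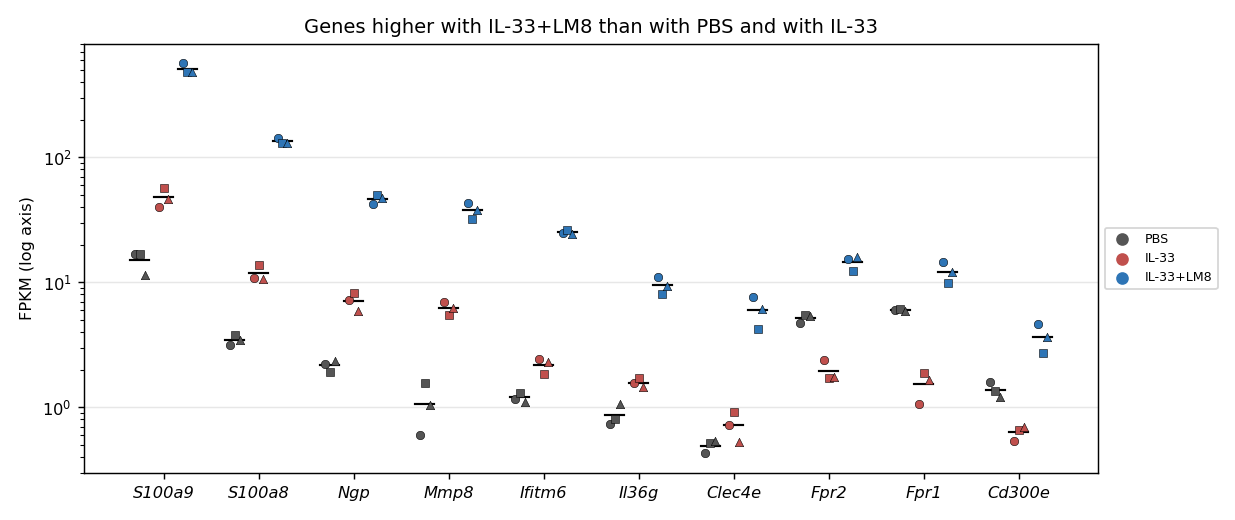
FPKM on a log axis for 10 genes that were higher with IL-33+LM8 than with PBS and with IL-33; each point is 1 library (circle, replicate 1; square, replicate 2; triangle, replicate 3) and each bar a group mean. All IL-33+LM8 points lie above the points of both other groups for these genes, with *S100a9* at 481 to 563 FPKM and *Fpr1*, *Fpr2* and *Cd300e* lower with IL-33 than with PBS.

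*Prok2*, a small secreted peptide made by neutrophils, was newly higher. *Prok2* had 0 counts in all PBS libraries, 0.0303, 0 and 0.0368 FPKM with IL-33 and 2.71, 2.54 and 2.34 FPKM with IL-33+LM8. That is at least 110-fold higher than PBS when each PBS library is set to 3 counts. *Ifitm6*, an interferon-induced transmembrane protein of myeloid cells, was at 1.17, 1.31 and 1.11 FPKM with PBS, 2.45, 1.83 and 2.31 FPKM with IL-33 and 24.8, 26.2 and 24.4 FPKM under the inhibitor. That is a log2 fold change of 4.40 against PBS (SE 0.13, adjusted p = 9.3e-06) and of 3.51 against IL-33 (SE 0.14, adjusted p = 3.3e-05). *Clec4e*, the myeloid receptor Mincle, had 7.68, 4.19 and 6.06 FPKM with IL-33+LM8 against 0.427 to 0.533 FPKM with PBS (log2 fold change 3.60, SE 0.23, adjusted p = 9.8e-05). *Camp*, the antimicrobial peptide cathelicidin, and *Wfdc21* rose by 4.08 (SE 0.90, adjusted p = 0.014) and 2.71 (SE 0.43, adjusted p = 0.0037) on the log2 scale. *Mrgpra2a*, newly higher, and *Mrgpra2b*, higher still, encode receptors of the Mas-related family and had 2.33, 2.04 and 1.77 FPKM and 5.27, 3.4 and 4.76 FPKM under the inhibitor, with at most 0.0803 FPKM in a PBS library. *Asprv1*, an aspartic protease gene, and *Ly6a2* rose by 5.51 (SE 0.47, adjusted p = 0.00029) and 2.99 (SE 0.29, adjusted p = 0.00049). The triggering receptor genes *Trem1* and *Trem3* and the lectin-like receptor gene *Klra17* were also newly higher. *Klra17* was not called against IL-33 without the libraries that stand apart (adjusted p = 0.063 from edgeR).

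Several cytokines and chemokines that act on neutrophils rose against PBS as well. *Il36g*, an IL-1 family cytokine of epithelium and myeloid cells, measured 0.74, 0.8 and 1.06 FPKM with PBS, 1.55, 1.71 and 1.44 FPKM with IL-33 and 11.1, 8.08 and 9.41 FPKM with IL-33+LM8 (log2 fold change against PBS 3.46, SE 0.19, adjusted p = 5.3e-05). Without the libraries that stand apart, *Il36g* was also called with IL-33 alone. *Il1b* had 2.38, 3.25 and 2.46 FPKM with PBS, 10.2, 9.99 and 8.31 FPKM with IL-33 and 21.8, 20.3 and 20.6 FPKM with IL-33+LM8. Of the list of 10 CXCR2 ligands and inflammatory cytokines, 8 were called higher than PBS under the inhibitor and 0 lower. With IL-33 alone 4 were called higher, and the medians were 2.40 and 1.10. Against IL-33, 4 of the 10 were called higher with LM8 and 1 lower. *Il6* was lower than with IL-33 without the libraries that stand apart (log2 fold change -1.38, adjusted p = 0.043 from edgeR). The neutrophil-attracting ligands *Cxcl2* and *Cxcl5* rose by 3.32 (SE 0.35, adjusted p = 0.00074) and 2.07 (SE 0.43, adjusted p = 0.011) on the log2 scale. *Cxcl5* was at 1.25 FPKM in 1 IL-33+LM8 library, next to 0.924 to 1.22 FPKM with IL-33, and at 4.29 and 3.12 FPKM in the others. Without the libraries that stand apart, 6 of the 10 were called. *Cxcl5* and *Il1a* were those lost, with adjusted p = 0.052 and 0.083 from edgeR. *Tnf*, newly higher at 1.71, 1.55 and 1.94 FPKM, was still called against PBS but not against IL-33 (adjusted p = 0.056).

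Formyl peptide receptors, through which phagocytes sense bacterial and mitochondrial peptides, went in opposite directions in both IL-33 groups. *Fpr1* measured 6.0, 6.11 and 5.84 FPKM with PBS, 1.06, 1.88 and 1.66 FPKM with IL-33 and 14.5, 9.79 and 12.0 FPKM with IL-33+LM8. Its log2 fold change against PBS was 1.03 under the inhibitor (SE 0.15, adjusted p = 0.0028) and -1.96 with IL-33 alone. *Fpr2* had 15.4, 12.4 and 15.9 FPKM with IL-33+LM8, 4.71, 5.5 and 5.33 FPKM with PBS and 2.39, 1.7 and 1.73 FPKM with IL-33. *Cd300e*, an activating receptor of monocytes, followed the same order, with log2 fold changes against PBS of 1.41 (SE 0.23, adjusted p = 0.0042) and -1.13. The groups did not overlap for any of these 3 genes. Over all genes tested, PBS and IL-33+LM8 values did not overlap for 47.3%, and the rule for named genes requires it. Without IL-33+LM8 replicate 1, *Fpr1* was not called against PBS (log2 fold change 0.88).

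Other newly higher genes belong to other cell types. *F13a1*, the coagulation factor XIII A chain of macrophages and platelets, had 8.09, 6.85 and 7.6 FPKM with IL-33+LM8 against 2.23, 2.57 and 2.35 FPKM with PBS and 1.32, 1.6 and 1.38 FPKM with IL-33 (log2 fold change against PBS 1.67, SE 0.09, adjusted p = 4.6e-05). *Ifitm1* measured 78.8, 82.9 and 78.5 FPKM with IL-33+LM8 and 24.9 to 35.6 FPKM in the other 6 libraries. The red cell genes *Slc4a1* and *Trim10* rose by 1.30 and 1.65 on the log2 scale, to 0.963 to 1.96 FPKM. *Slc4a1* was still called against PBS without the libraries that stand apart, whereas *Trim10* was not (adjusted p = 0.12 from edgeR). The other newly higher genes include *Cd207* and *Cd209f*, C-type lectins of dendritic cells and macrophages, and *Ccl19*, a ligand of CCR7. *Cd209f* and *Ccl19* were not called against PBS without the libraries that stand apart (adjusted p = 0.12 and 0.15 from edgeR). Without those libraries 17 genes were newly higher, and 15 of the 26 were among them.

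*Aldh1a3*, which makes retinoic acid, was higher in IL-33+LM8 than in IL-33 lungs but spread widely. It had 9.34, 27.5 and 18.6 FPKM with IL-33+LM8, 5.67, 4.43 and 6.06 FPKM with IL-33 and 0.292, 0.572 and 0.584 FPKM with PBS. The log2 fold change was 5.27 against PBS (SE 0.47, adjusted p = 0.00036) and 1.78 against IL-33 (SE 0.36, adjusted p = 0.0097). Without the libraries that stand apart, the second call was lost (adjusted p = 0.06), as it was for *Cxcl9* (adjusted p = 0.14). 14 of the 19 higher-still genes kept all of their calls.

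Of the newly lower genes, *Mfap4*, a microfibril-associated protein that binds elastin, had the highest level and measured 571, 399 and 465 FPKM with PBS, 297, 318 and 290 FPKM with IL-33 and 134, 118 and 120 FPKM with IL-33+LM8. Its log2 fold change was -1.93 against PBS (SE 0.14, adjusted p = 0.00017) and -1.28 against IL-33 (SE 0.07, adjusted p = 5.8e-05). *Ndnf*, a secreted growth factor, was at 17.7, 16.8 and 18.0 FPKM with PBS, 16.8, 15.1 and 17.3 FPKM with IL-33 and 6.31, 5.66 and 6.4 FPKM under the inhibitor. It fell by 1.5 on the log2 scale against PBS (SE 0.07, adjusted p = 2.4e-05), while IL-33 alone gave -0.10. *Fbln2*, an elastic fibre protein, and *Pi15*, a secreted peptidase inhibitor, fell by 1.49 (SE 0.20, adjusted p = 0.002) and 1.32 (SE 0.18, adjusted p = 0.0021).

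*Eln*, elastin itself, also fell against PBS, by 1.58 on the log2 scale (SE 0.21, adjusted p = 0.0019), at 71.1, 38.2 and 53.8 FPKM with PBS and 17.5, 19.3 and 17.4 FPKM with IL-33+LM8. Against IL-33 it missed the 2-fold limit (log2 fold change -0.97), so it is not among the newly lower genes. Over the whole list of 15 fibroblast and matrix genes, 2 were called higher than PBS and 1 lower, at a median of 0.11. *Timp1*, an inhibitor of matrix proteases, was 1 of those higher, at 45.1, 141 and 85.5 FPKM against 2.2 to 3.69 FPKM with PBS. The other was *Acta2*, smooth muscle actin, at 164 to 203 FPKM against 82.9 to 98.8 FPKM. *Acta2* lost its call without PBS replicate 3 (log2 fold change 0.96) or IL-33+LM8 replicate 2 (0.94). Its call was also lost without the libraries that stand apart (0.98). The collagen genes *Col1a1* and *Col3a1* were not called against PBS under the inhibitor (adjusted p = 0.31 and 0.17), at log2 fold changes of 0.27 and 0.48, with 2.15 and 2.04 under IL-33 alone.

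**Figure D3:**
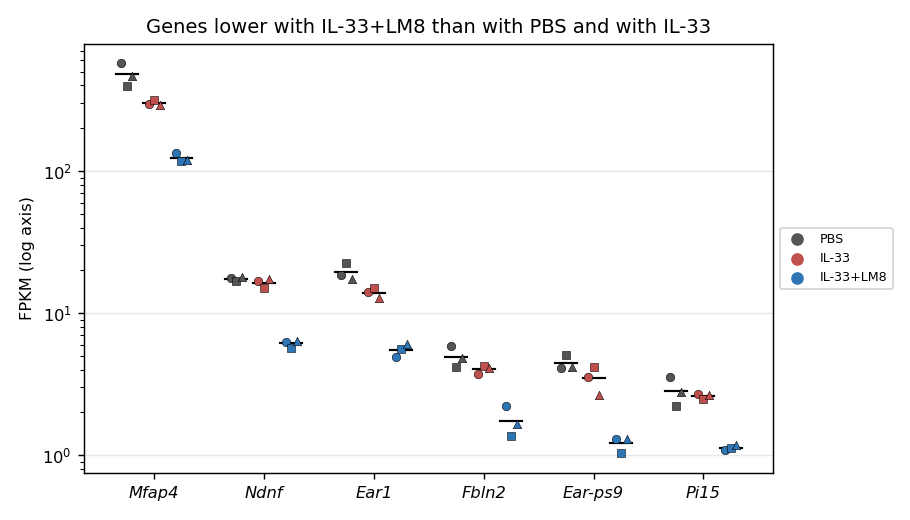
FPKM on a log axis for newly lower genes; each point is 1 library (circle, replicate 1; square, replicate 2; triangle, replicate 3) and each bar a group mean. The IL-33+LM8 points lie below those of PBS and IL-33 for each gene, as for *Ndnf* at 5.66 to 6.4 FPKM against 15.1 to 18.0 FPKM in the other libraries.

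*Ear1*, a ribonuclease of the eosinophil-associated family, and its relative *Ear-ps9* were newly lower too. *Ear1* had 18.4, 22.4 and 17.5 FPKM with PBS, 14.1, 15 and 12.8 FPKM with IL-33 and 4.9, 5.6 and 6.05 FPKM with IL-33+LM8 (log2 fold change against PBS -1.80, SE 0.15, adjusted p = 0.00026). Members of this family are near-identical, so reads may be split among them and their values are uncertain. 4 of the 17 newly lower genes are immunoglobulin segments, which are likewise alike in sequence. Without the libraries that stand apart 19 genes were newly lower, and 11 of the 17 were among them. *Ear-ps9* was not, since it was no longer called against IL-33 (adjusted p = 0.064 from edgeR).

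*Retnla* had the highest level among the named genes that remained raised. It encodes the secreted protein RELM-alpha of alternatively activated macrophages and airway epithelium, and measured 67.8, 86.6 and 44.7 FPKM with PBS, 9390, 10400 and 10900 FPKM with IL-33 and 6240, 9830 and 7900 FPKM with IL-33+LM8. Its log2 fold change against PBS was 6.93 (SE 0.34, adjusted p = 3.1e-05), and against IL-33 it was -0.35 (SE 0.17, adjusted p = 0.17), with overlapping values. *Chia1*, acidic mammalian chitinase, had 27.8, 25.9 and 27.7 FPKM with PBS, 573, 519 and 605 FPKM with IL-33 and 357, 733 and 540 FPKM with IL-33+LM8 (log2 fold change against PBS 4.34, SE 0.27, adjusted p = 8.4e-05). *Chil1*, a chitinase-like protein without enzyme activity, rose by 1.81 (SE 0.12, adjusted p = 0.0001) to 605, 800 and 696 FPKM. In all, 293 of the 900 genes raised in both groups had an adjusted p of at least 0.05 between the IL-33 groups. *Rps2*, a ribosomal protein gene that has processed copies, was among them at 193, 294 and 364 FPKM against 106, 132 and 187 FPKM with PBS, and lost its call without PBS replicate 1 (log2 fold change 0.86) or 2 (0.97) or IL-33+LM8 replicate 2 (0.99) or 3 (0.80). A p that misses the threshold does not show that both groups were alike.

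Mucous cell genes stayed high. All 12 genes of the goblet cell list were called higher than PBS under the inhibitor and 11 with IL-33 alone, at medians of 4.38 and 4.16, and 1 was lower with LM8 than without it. *Clca1*, a secreted regulator of mucus, measured 1.36, 9.4 and 4.36 FPKM with PBS, 415, 387 and 428 FPKM with IL-33 and 481, 486 and 477 FPKM with IL-33+LM8. That is a log2 fold change of 6.60 against PBS (SE 0.69, adjusted p = 0.00068) and of 0.23 against IL-33. *Retnlb*, RELM-beta, had 0 counts with PBS and 2.12, 1.88 and 2.7 FPKM under the inhibitor, at least 35.5-fold higher, and *Itln1*, the lectin intelectin, rose by 6.50 (SE 1.02, adjusted p = 0.0036). *Slc26a4*, the anion exchanger pendrin, had 48.7, 90.4 and 85.8 FPKM with IL-33+LM8, 89.4, 72.6 and 90.8 FPKM with IL-33 and 0.521, 0.541 and 0.716 FPKM with PBS. The exception was *Muc5ac*, the inducible airway mucin. At 6.42, 6.06 and 5.79 FPKM it was far above PBS (0.184, 0.229 and 0.116 FPKM) but lower than with IL-33 (11.8, 11.5 and 14.2 FPKM, log2 fold change -1.04, SE 0.09, adjusted p = 0.00033). *Agr2*, a chaperone needed for mucin folding, spread from 11.9 to 35.5 FPKM under the inhibitor. Without the libraries that stand apart 11 of the 12 were called, with *Tff2* lost (adjusted p = 0.097).

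**Figure D4:**
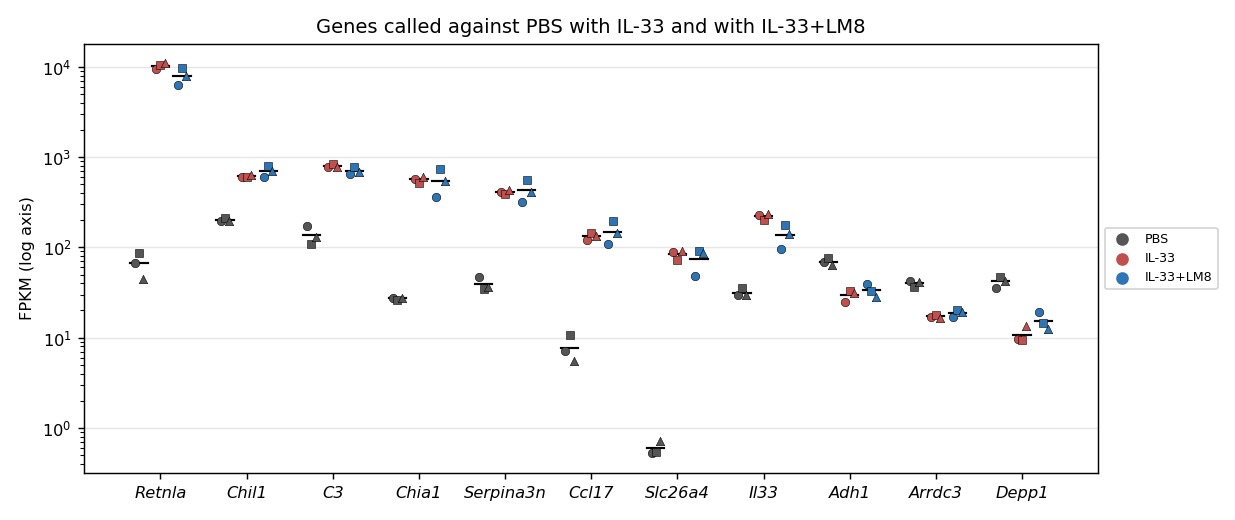
FPKM on a log axis for genes raised or lowered against PBS in both IL-33 groups; each point is 1 library (circle, replicate 1; square, replicate 2; triangle, replicate 3) and each bar a group mean. IL-33 and IL-33+LM8 points lie on the same side of PBS for each gene, with *Retnla* at 6240 to 9830 FPKM under the inhibitor and 44.7 to 86.6 FPKM with PBS.

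The type 2 cytokines themselves remained detectable under the inhibitor at low levels. *Il13* had 0, 0.0504 and 0 FPKM with PBS, 2.24, 2.39 and 3.0 FPKM with IL-33 and 1.04, 3.34 and 1.42 FPKM with IL-33+LM8 (log2 fold change against PBS 6.79, SE 1.00, adjusted p = 0.0028). *Il5* measured 1.75, 2.47 and 2.42 FPKM with IL-33+LM8 against 0.0337 to 0.172 FPKM with PBS and 4.01 to 4.07 FPKM with IL-33. *Fgf23*, a hormone of phosphate balance, was at 0.546, 3.95 and 2.38 FPKM with IL-33+LM8, 3.34 to 3.53 FPKM with IL-33 and 0 to 0.0336 FPKM with PBS. *Il13ra2*, the IL-13 decoy receptor, had 0 counts in every PBS library and 0.65, 1.84 and 1.76 FPKM under the inhibitor, at least 73.8-fold higher. Of the 13 genes of the type 2 cytokine list, 4 were called higher than PBS with IL-33+LM8 and 7 with IL-33 alone, at medians of 0.85 and 1.19. *Gata3*, the transcription factor of type 2 lymphocytes, was 1 of these 4, and its level of 4.21 to 4.78 FPKM lay between PBS (1.93 to 2.42 FPKM) and IL-33 (8.02 to 9.89 FPKM).

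Chemokines of type 2 inflammation remained up, with all 8 tested members called higher than PBS in both groups. *Ccl11* (eotaxin) was at 73.9, 142 and 110 FPKM with IL-33+LM8, spanning that of IL-33 lungs (99.2 to 103 FPKM), against 1.46 to 1.83 FPKM with PBS. *Ccl17*, a ligand of CCR4, rose by 4.29 (SE 0.32, adjusted p = 0.00017) and was not called against IL-33 (log2 fold change 0.16). *Ccl24* and *Ccl8* also rose, but to lower levels than with IL-33. *Ccl24* had 22.4, 63.8 and 42.9 FPKM under the inhibitor and 166, 190 and 172 FPKM without it. Of 10 monocyte chemokines and receptors, 9 were called higher than PBS, with *Ccl6*, the highest, at 119, 166 and 147 FPKM against 53.7 to 63.8 FPKM with PBS and 374 to 419 FPKM with IL-33, and *Ccl2* at 6.86, 9.53 and 6.48 FPKM against 0.176 to 0.455 FPKM with PBS.

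In the list of 13 acute phase and complement genes, 6 were called higher than PBS in each group and 0 were called between the IL-33 groups. *C3*, the central complement component, measured 172, 109 and 130 FPKM with PBS, 785, 839 and 780 FPKM with IL-33 and 652, 773 and 684 FPKM with IL-33+LM8. *Lcn2*, the iron-binding lipocalin 2, had 125, 138 and 125 FPKM with IL-33+LM8 and 18.7, 22.7 and 20.1 FPKM with PBS (log2 fold change 2.67, SE 0.09, adjusted p = 9.3e-06). *Serpina3n*, a serine protease inhibitor, rose by 3.46 (SE 0.23, adjusted p = 0.00012). *Saa1* and *Saa2*, acute phase proteins which the liver also makes, were not called, but were called without the libraries that stand apart, which gave 8 of 13 genes, and with the replicate number as a block (log2 fold changes 2.56 and 2.76, adjusted p = 0.0072 and 0.0075 from edgeR).

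Other gene lists were called above PBS but lay below IL-33. All 12 alternatively activated macrophage genes were higher than PBS with IL-33 and 10 with IL-33+LM8, and 6 were lower with LM8 than without it. *Arg1*, arginase 1, was at 36.4, 64.7 and 45.1 FPKM under the inhibitor, 256, 249 and 240 FPKM with IL-33 and 2.74, 2.94 and 1.19 FPKM with PBS. *Chil3* had 1800, 2120 and 1940 FPKM with IL-33+LM8 and 4060 to 4650 FPKM with IL-33, against 193 to 224 FPKM with PBS. *Chil4*, a further chitinase-like gene, was at 190, 250 and 223 FPKM against 448 to 579 FPKM with IL-33 and 0.327 to 1.89 FPKM with PBS (log2 fold change against PBS 7.35, SE 0.63, adjusted p = 0.00029). *Cd163*, the haemoglobin scavenger receptor, was higher with the inhibitor, at 5.54, 6.42 and 5.89 FPKM against 3.43 to 4.1 FPKM with IL-33, a log2 difference of 0.62 that did not reach 2-fold.

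Eosinophil genes followed the same order. Of 10, 6 were called higher and 1 lower than PBS under the inhibitor, and 9 were lower than with IL-33. *Rnase2a*, a ribonuclease of eosinophil granules, had 97.6, 116 and 95.0 FPKM with IL-33+LM8, 434 to 507 FPKM with IL-33 and 0.406 to 2.57 FPKM with PBS. *Ear2*, the highest of the list, had 129, 163 and 143 FPKM against 79.7 to 88.4 FPKM with PBS and was not called (log2 fold change 0.81). *Prg2*, major basic protein, had 3.84, 4.21 and 3.76 FPKM with IL-33+LM8, 17.9, 19.2 and 21.4 FPKM with IL-33 and 0.137 to 0.243 FPKM with PBS. *Siglecf*, a receptor of eosinophils and alveolar macrophages, was not called against PBS, at 1.83 to 2.12 FPKM against 3.28 to 3.5 FPKM (log2 fold change -0.80). The summed FPKM of the list was 263 to 316 under the inhibitor, 104 to 119 with PBS and 1100 to 1220 with IL-33.

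Cell division genes were raised at reduced size. Of 20, 17 were called higher than PBS with IL-33+LM8 and all 20 with IL-33 alone, at medians of 1.68 and 2.96. *Mki67*, a marker of dividing cells, had 10.9, 11.8 and 12.9 FPKM under the inhibitor, 28.6 to 32.6 FPKM with IL-33 and 2.5 to 4.58 FPKM with PBS. Among 12 monocyte and interstitial macrophage genes, 6 were called higher than PBS and 8 lower than IL-33, with *C1qb*, a complement C1q chain of macrophages, at 74.4, 80.0 and 70.2 FPKM against 21.0 to 25.1 FPKM with PBS. Of 10 B and plasma cell genes 5 were higher than PBS, with *Ighm* at 109 to 112 FPKM against 37.1 to 54.2 FPKM with PBS and 646 to 693 FPKM with IL-33. The 9 MHC class II genes were all called higher with IL-33 alone and 0 were called with IL-33+LM8, at medians of 1.51 and 0.61. *Cd74*, the invariant chain, had 767 to 858 FPKM under the inhibitor against 503 to 558 FPKM with PBS. Of 12 T cell genes 3 were higher (*Icos*, *Ctla4* and *Foxp3*), and *Foxp3*, the factor of regulatory T cells, was lost without the libraries that stand apart (adjusted p = 0.075).

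**Figure D5:**
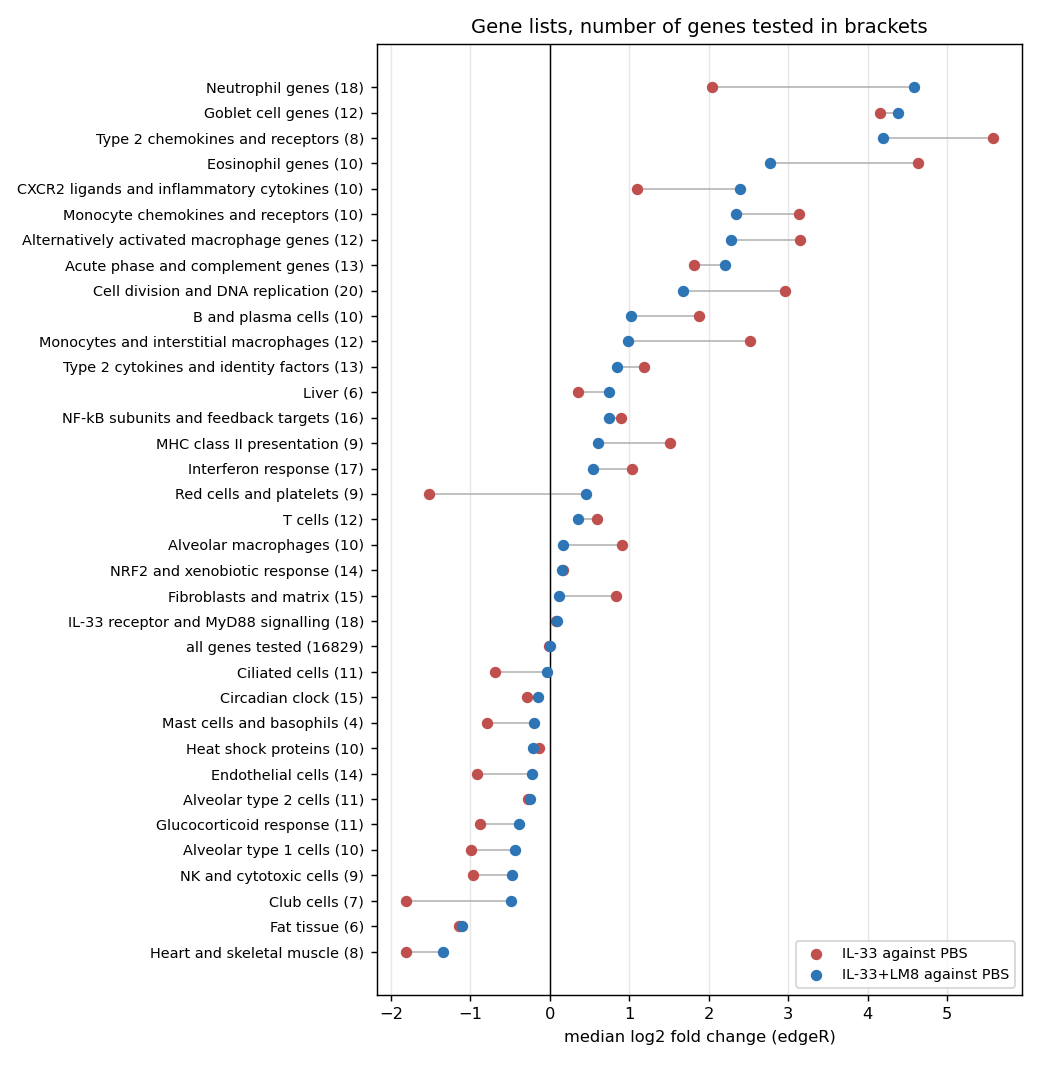
Median log2 fold change against PBS (x axis) of each gene list (rows, with the number of genes tested in brackets) for IL-33 (red) and IL-33+LM8 (blue), which share the PBS libraries. The neutrophil list lies at 4.58 with IL-33+LM8 and 2.04 with IL-33, the goblet cell list at 4.38 and 4.16, and the list of all genes tested at 0.00 and -0.01.

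In the pathway that LM8 targets, *Il33* itself remained raised at 95.1, 175 and 140 FPKM against 29.9, 35.1 and 29.7 FPKM with PBS and 230, 202 and 232 FPKM with IL-33 (log2 fold change against PBS 2.13, SE 0.21, adjusted p = 0.00057). *Il1rl1*, the receptor, had 5.29, 5.61 and 5.73 FPKM under the inhibitor, 0.936, 0.988 and 0.973 FPKM with PBS and 14.5, 12.3 and 16.4 FPKM with IL-33. *Irak3*, an inhibitory kinase of the pathway, rose by 1.03 (SE 0.16, adjusted p = 0.0033). *Myd88* mRNA was not called, with a log2 fold change of 0.74, at 29.7, 31.4 and 28.7 FPKM against 17.7 to 18.2 FPKM with PBS. These were 3 of 18 genes called in each group, at medians of 0.09 and 0.08. Of 16 NF-kB subunits and feedback targets, 4 were called higher under the inhibitor and 6 with IL-33 alone, with *Tnip3*, which restrains NF-kB signalling, at 0.765 to 1.03 FPKM against 2.63 to 2.69 FPKM with IL-33. Of 17 interferon response genes 5 were higher than PBS, against 9 with IL-33 alone. *Oas3* had near the same log2 fold change in both groups, 2.55 and 2.53.

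Genes that stayed low were fewer. Of the 175 lowered in both groups, 149 were not called between the IL-33 groups and 26 were higher with LM8 than without it. *Adh1*, alcohol dehydrogenase 1, fell by 1.04 on the log2 scale (SE 0.13, adjusted p = 0.0014) and was at 39.3, 33 and 28.2 FPKM under the inhibitor, 24.7, 32.6 and 31.4 FPKM with IL-33 and 68.3, 77 and 63.3 FPKM with PBS. *Arrdc3*, an arrestin-domain protein, had 16.8, 20.4 and 19.1 FPKM with IL-33+LM8 and 42.5, 36.8 and 40.8 FPKM with PBS. *Depp1*, a target of FOXO factors, had 19.1, 14.5 and 12.5 FPKM against 35.8, 47.4 and 42.5 FPKM. *Adh1* sat at the fold limit and was not called without PBS replicate 2 (log2 fold change -0.95), without IL-33+LM8 replicate 3 (-0.93) or without the libraries that stand apart.

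Club cell genes were lowered in part. Of 7 genes 2 were called lower than PBS under the inhibitor and 6 with IL-33 alone, and 4 were higher with LM8 than without it. *Scgb3a2*, a secretoglobin of club cells, had 71.6, 63.3 and 65.8 FPKM with IL-33+LM8, 16.5, 20.8 and 18.6 FPKM with IL-33 and 215, 226 and 202 FPKM with PBS. *Cyp2f2*, a cytochrome P450 of these cells, had 639, 431 and 521 FPKM against 1230 to 1330 FPKM with PBS. The main club cell product *Scgb1a1* was not called against PBS (log2 fold change -0.31, adjusted p = 0.067).

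Of 8 heart and skeletal muscle genes, 5 were called lower than PBS under the inhibitor and 7 with IL-33 alone, and 0 were called between the IL-33 groups. *Myh6*, the atrial myosin heavy chain, had 26.1, 11.6 and 23.9 FPKM with IL-33+LM8 and 65.0, 44.6 and 60.9 FPKM with PBS. *Myl4*, an atrial myosin light chain, fell by 1.69 (SE 0.16, adjusted p = 0.00048). *Mb*, myoglobin, was not on the list and was lower at 6.56, 4.27 and 18.6 FPKM against 33.4, 36.2 and 50.3 FPKM, but its call was lost without PBS replicate 1 (log2 fold change -2.11), 2 (-2.07) or 3 (-1.81) and without IL-33+LM8 replicate 1 (-1.78). Myocardial cells line the pulmonary veins of mice, and the tissue cut around the lung is not described. The part of either in these values was not tested.

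Of 15 circadian clock genes, 3 were called higher and 2 lower than PBS in IL-33+LM8 lungs, and 3 higher and 3 lower with IL-33 alone. *Arntl* and *Npas2*, which drive the cycle, fell by 1.25 and 1.29 on the log2 scale, and their repressors *Nr1d1* and *Nr1d2* rose by 2.03 and 1.06, as did their target *Dbp* by 2.11. *Nr1d1* had 43.8, 11.4 and 25.8 FPKM with IL-33+LM8, 24.5 to 26.1 FPKM with IL-33 and 5.49 to 8.73 FPKM with PBS. *Dbp* was low in 1 library, at 10.6, 2.33 and 11.1 FPKM with IL-33+LM8 against 1.38, 2.04 and 2.17 FPKM with PBS, and kept its call only without IL-33+LM8 replicate 2 among the 6 ways to leave out 1 library, with log2 fold changes of 1.80 to 2.22 in the other 5. The hour at which lungs were taken is not given, and its part in these values was not tested. Without the libraries that stand apart, *Npas2* was the gene of these 5 still called.

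The largest falls against PBS by fold differed within groups. *Ptgds*, prostaglandin D2 synthase, had 4.13, 4.52 and 0.744 FPKM with PBS, 0.678, 5.23 and 0.951 FPKM with IL-33 and 0.688, 0.565 and 0.47 FPKM with IL-33+LM8. The log2 fold change against PBS was -2.41 (SE 0.62, adjusted p = 0.025). *Ndrg4*, *Ppp2r2c* and *Nap1l5*, genes used by neurons, were likewise high in PBS replicates 1 and 2 and in IL-33 replicate 2, and lower in PBS replicate 3. The call of *Ptgds* was lost without PBS replicate 1 (-2.14) or 2 (-2.04) or any 1 of the IL-33+LM8 libraries (-2.54 to -2.29), and that of *Ndrg4* without PBS replicate 1 (-1.86) or 2 (-1.78) or IL-33+LM8 replicate 2 (-2.06) or 3 (-1.99). *Olfm2* was more even, at 4.12, 3.55 and 2.69 FPKM with PBS and 1.04, 0.871 and 0.703 FPKM with IL-33+LM8 (log2 fold change -1.96, SE 0.23, adjusted p = 0.0011).

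Over all genes tested 7.33% were called against PBS under the inhibitor, so a short list can hold none without departing from that share. Several cell type lists had no called gene in this comparison. This was so for alveolar type 2 cells (11 genes, median log2 fold change -0.25), alveolar type 1 cells (10 genes, -0.44), ciliated cells (11 genes, -0.04), endothelium (14 genes, -0.22), NK cells (9 genes, -0.48), heat shock proteins (10 genes, -0.21), fat (6 genes, -1.10), liver (6 genes, 0.75) and mast cells and basophils (4 genes, -0.20). The liver genes were near 0 in 1 library of each group, and without these libraries 1 of the 6, *Apoa2*, was called higher (log2 fold change 1.04, adjusted p = 0.019 from edgeR). With the replicate number as a block, 3 of the 6 fat genes were called lower, *Adipoq* (log2 fold change -1.17, adjusted p = 0.0068), *Car3* (-1.14, adjusted p = 0.025) and *Retn* (-1.18, adjusted p = 0.039). With IL-33 alone 5 alveolar type 1, 7 endothelial and 4 NK cell genes were called lower than PBS. *Sftpc*, surfactant protein C, had 8830, 9740 and 9040 FPKM with IL-33+LM8 against 10700 to 11600 FPKM with PBS and 4880 to 5050 FPKM with IL-33. *Ager*, a marker of alveolar type 1 cells, had 639 to 700 FPKM against 818 to 894 FPKM with PBS and 439 to 456 FPKM with IL-33. Summed FPKM of the alveolar type 2 list was 12200 to 13500 under the inhibitor, 13800 to 14800 with PBS and 7740 to 7970 with IL-33. In the glucocorticoid response list 2 of 11 genes were higher, *Fkbp5* and *Mt2*, and in the NRF2 list 2 of 14, *Hmox1* and *Slc7a11*. Over all genes tested, 5.87% were called higher. Of 10 alveolar macrophage genes 3 were higher and 1 lower, with the protease gene *Ctsk* at 18.2, 34.1 and 26.2 FPKM against 8.54 to 11.4 FPKM with PBS and 72.3 to 76.9 FPKM with IL-33.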

How the data were processed

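Lung RNA was sequenced as 9 libraries in 3 groups, and whether each comes from a separate mouse was not tested. The authors deposited 1 table of counts and FPKM per gene and library. Per the labels, the submitters' processing notes list Bowtie 0.12.2, HISAT2 2.0, StringTie 1.3.0 and mm10, with no roles given. Gene coordinates in the table differ from that build and were not used. Promoter windows come from RefSeq on GRCm38.p6.

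Genes whose FPKM averaged 0.5 or more were tested on the deposited counts with edgeR 4.0.16 (TMM, quasi-likelihood F test, R 4.3.3), each comparison fitted on its 6 libraries, with Benjamini-Hochberg adjustment. A gene was called at an adjusted p under 0.05 and a fold of at least 2. The SE is the log2 fold change divided by the square root of F. Folds against a group with 0 counts set each of its libraries to 3 counts. Alternatives were DESeq2 1.42.0, its size factors, limma 3.58.1 on log2(FPKM + 1) and log2(FPKM + 0.1), other filters, no minimum fold, 1 fit of all 9 libraries, the replicate block and each library left out. The scripts were tested on simulated counts.

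Members, the 34 gene lists (412 genes, 390 tested) and tests were chosen with earlier results of these data known. Named genes were the largest changes in each class among called genes without overlap and with a group mean of at least 2 FPKM, the most abundant genes called alike in both groups, and in each list the most abundant member and the called member with the largest fold; this rule passes over immunoglobulin and T cell receptor segments, Gm numbers, Rik clones and repeated symbols. Further list members and newly changed genes were named after their values were seen. Library positions used genes with at least 200 counts in both other libraries and a log2 shift under 0.2 in the libraries that stand apart of the other groups.

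Replicates were compared by chi-square, which was 24.06 per gene or more, so no library is a copy of another within sampling noise. Deviations of same-numbered PBS and IL-33+LM8 libraries correlated at 0.389, 0.428 and 0.732. Replicates 1 and 2 of unlike number correlated nearly as well, at 0.307 and 0.322, and replicate 3 stands apart in both groups. The numbers were used as a block in an alternative fit, but these correlations cannot tell whether they pair the libraries. In the other comparisons some same-numbered libraries correlated below 0. Where a sample falls short of 3 counts of a gene, its absence cannot be told from a low level, and counting error is the only error such a floor covers. 1 gene among those newly higher is not reported by name here.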

Additional observations from a re-analysis of the deposited data

How the results depend on the processing

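Counts below are given as genes called, higher, lower, higher in both IL-33 groups, lower in both, newly higher and newly lower, which were 1233, 988, 245, 900, 175, 26 and 17. With limma on log2(FPKM + 1), which compresses low values, they were 588, 508, 80, 436, 57, 19 and 7. With the FPKM limit set to 5, which tests fewer genes, they were 469, 404, 65, 379, 47, 2 and 7, and with no minimum fold 4997, 2741, 2256, 2488, 2017, 96 and 67. DESeq2 gave 29 newly lower genes and no filter on low values 41 newly higher genes, and the cause was not tested. Leaving out each library in turn gave 1073 to 1297, 896 to 992, 177 to 305, 822 to 900, 128 to 216, 20 to 31 and 14 to 22. With the replicate block 1364 genes were called, 1054 higher and 310 lower, and of the genes named in the report the blocked fit changed the calls against PBS of *Saa1*, *Saa2*, *Adipoq*, *Car3* and *Retn*, which were then called, and of *Hdc*, which was then lost. By list it called 6 heart and skeletal muscle genes lower, and 4 T cell and 5 type 2 cytokine genes higher. 2 alternatives were chosen after seeing the data. A term for the 3 libraries that stand apart gave 1337 genes called and 26 newly higher. Leaving these libraries out, 2 against 2, gave 1199 called, 905 higher, 294 lower and 17 newly higher, so the number of newly higher genes moved by more than 1.5 times. Of 1506 values of single genes under these alternatives, 1446 stayed on the same side of both 0 and the threshold and 5 turned direction. These 5 were for *Plvap*, at 0.00 with no filter, 0.15 without PBS replicate 3, 0.06 and 0.07 without IL-33+LM8 replicates 1 and 2, and for *Ifit3*, at 0.04 without PBS replicate 2, and neither gene was called in any of them. Over the libraries left out in turn they ranged from -0.18 to 0.15 for *Plvap* and from -0.21 to 0.04 for *Ifit3*. Genes under 3 counts per library, as *Prok2* with PBS, have no measured level there, so their fold is a lower bound.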
